A study of Mus musculus with 8 samples.

Results

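The expression of 7 genes that mark germinal centre B (GCB) cells, namely S1pr2, Mef2b, Rgs13, Gcsam, Fas, Bach2 and Neil1, was followed across B cell classes in single-cell RNA libraries of mouse spleen. The genes were chosen by symbol, and all 7 were found among the 32285 genes of the count matrices. The series holds 8 libraries, 2 for each combination of genotype and sort. Mice called cKO had floxed Eif3e alleles, which encode a subunit of the translation initiation complex eIF3, together with Cγ1Cre and a Cre-dependent YFP reporter in the Rosa26 locus. The control mice carried Cγ1Cre and the same reporter without the floxed gene. All mice were on the C57BL/6J background and 2 months old, the controls being littermates, and the cells of 2 to 3 mice were pooled for each library. The 2 libraries of a group come from different batches. A p-value from a fit without the batch therefore measures the spread between pools and batches together. Either all live splenocytes or YFP+ cells were sorted, and groups are named by genotype and sort, such as cKO YFP+ or control total. Cγ1Cre is switched on in B cells after activation, so YFP marks cells in which Cre had acted and their progeny, whereas the total sort holds such cells among all others.

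Germinal centres form in B cell follicles when activated B cells proliferate, mutate their immunoglobulin genes and are selected with the help of T follicular helper cells. S1pr2 and Rgs13 act on migration: S1pr2 is a sphingosine-1-phosphate receptor that keeps B cells in the centre of the follicle, and Rgs13 dampens signals of chemokine receptors. Gcsam is a signalling adaptor that restrains B cell motility, and Fas is a death receptor displayed by GCB cells. Mef2b is a transcription factor that acts upstream of Bcl6, Bach2 is a repressor that holds back plasma cell differentiation, and Neil1 is a DNA glycosylase of base excision repair.

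In the GENCODE vM21 annotation of GRCm38, S1pr2 lies at chr9:20962361-20976781 (minus strand), Mef2b at chr8:70139711-70167488 (plus strand), Rgs13 at chr1:144138654-144177372 (minus strand), Gcsam at chr16:45610380-45622867 (plus strand), Fas at chr19:34290666-34327772 (plus strand), Bach2 at chr4:32238804-32586108 (plus strand) and Neil1 at chr9:57142800-57148305 (minus strand). All 7 are protein coding. Mef2b shares 62 exonic bases with Borcs8 on the same strand, and Bach2 shares 537 with its antisense gene Bach2os. Bach2os held 895 UMIs in B-lineage cells beside 511791 of Bach2, whereas Borcs8 held 20184 beside 30593 of Mef2b, so Mef2b carries the larger uncertainty in how reads were assigned.

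The 250 bases before the RefSeq start (GRCm38.p6) are printed for 5 of the genes, in the direction of transcription, to show where motifs of factors known in GCB cells were or were not met in them. Motif matches are in capitals. The windows are chr9:20976794-20977043 (minus strand) for S1pr2, chr8:70152511-70152760 (plus strand) for Mef2b, chr1:144177373-144177622 (minus strand) for Rgs13, chr19:34290409-34290658 (plus strand) for Fas and chr9:57148306-57148555 (minus strand) for Neil1. The Mef2b window lies inside the longer vM21 gene and not before its start, as does that of Bach2, which is not shown, and the other 4 lie before the vM21 gene. Gcsam is not shown because 60 bases of its window are exonic in vM21.
S1pr2: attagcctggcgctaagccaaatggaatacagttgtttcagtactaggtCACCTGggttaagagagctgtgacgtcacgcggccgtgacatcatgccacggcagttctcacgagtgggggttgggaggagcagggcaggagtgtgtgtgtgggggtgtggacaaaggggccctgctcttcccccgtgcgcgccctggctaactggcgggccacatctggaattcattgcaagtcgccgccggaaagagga
Mef2b: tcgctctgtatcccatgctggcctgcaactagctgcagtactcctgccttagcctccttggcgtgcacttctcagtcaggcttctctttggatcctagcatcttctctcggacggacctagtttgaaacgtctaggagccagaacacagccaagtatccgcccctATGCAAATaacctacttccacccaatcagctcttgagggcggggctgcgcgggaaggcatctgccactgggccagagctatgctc
Rgs13: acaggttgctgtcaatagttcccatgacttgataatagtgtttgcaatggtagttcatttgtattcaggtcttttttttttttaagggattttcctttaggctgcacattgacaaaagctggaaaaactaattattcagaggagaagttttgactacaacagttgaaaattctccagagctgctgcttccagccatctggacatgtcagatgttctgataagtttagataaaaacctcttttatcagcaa
Fas: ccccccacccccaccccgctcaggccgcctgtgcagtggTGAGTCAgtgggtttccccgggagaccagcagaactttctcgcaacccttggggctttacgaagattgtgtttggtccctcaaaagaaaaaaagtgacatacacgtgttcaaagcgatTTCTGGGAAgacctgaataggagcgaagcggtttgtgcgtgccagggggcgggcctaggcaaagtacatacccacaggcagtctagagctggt
Neil1: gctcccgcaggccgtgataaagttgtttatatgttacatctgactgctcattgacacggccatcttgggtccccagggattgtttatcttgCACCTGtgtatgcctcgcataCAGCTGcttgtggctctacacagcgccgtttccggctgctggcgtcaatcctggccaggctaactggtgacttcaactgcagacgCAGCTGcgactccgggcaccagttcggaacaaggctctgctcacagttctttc

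Motifs were searched on both strands. The octamer ATGCAAAT, read by OCT factors, was found in Mef2b and in 1.6% of 32851 promoters of the same length. The E-box CAGGTG was found in S1pr2 and Neil1 (both as CACCTG on the printed strand) and in 17.2% of all promoters, and CAGCTG was found at 2 places in Neil1 and in 13% of all promoters. Fas held the BCL6 and STAT core TTCNNNGAA (7.02% of all promoters) and the BACH and AP-1 core TGANTCA (6.75%). Outside the printed windows, Bach2 held TTCNNNGAA and Gcsam held no match. Rgs13 had none either, and neither the MEF2 motif, CTA and TAG separated by 4 bases (3.2% of all promoters) nor the ETS-IRF composite, GGAA and TGAAA separated by 1 base (0.594%) was met in any of the 7 windows. The motifs do not overlap in the printed windows.

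Of 83967 barcodes, 83704 cells were kept, and the libraries held 71894780 to 105224903 unique molecular identifiers (UMIs), with medians of 5250 to 6810.5 UMIs per cell. Any 2 libraries shared 51 to 102 barcodes, at most 0.971% of the smaller library. Levels are given as CPM, the UMIs of a gene scaled to 1000000 UMIs, of the cells summed per library, always with batch 1 before batch 2, and in such sums fewer cells of a type and less RNA per cell cannot be told apart. Eif3e itself stood at 225 and 267 CPM in control YFP+ and 234 and 279.9 CPM in cKO YFP+ B-lineage cells, with 218 and 261 CPM in control total and 231 and 278 CPM in cKO total. These levels did not separate the genotypes in YFP+ cells (log2 fold change 0.04, SE 0.32, adjusted p = 0.98). The counts come from the 3′ ends of transcripts, and whether the deleted part of Eif3e reaches them was not tested. By the classes named below, Eif3e differed in both directions. In YFP+ naive B-like cells it was 291 and 361 CPM in cKO and 207 and 264 CPM in control. In YFP+ pre-GCB-like cells it was 158 and 159 CPM in cKO and 276 and 285 CPM in control. The paper checked the deletion in YFP+ B cells by immunoblot, in mice older than those of these libraries. Immunoglobulin genes took 8.52% and 7.41% of UMIs in control YFP+ libraries and 1.37% to 2.21% elsewhere.

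B-lineage cells were divided into 10 classes by markers that include none of the 7 genes, and none of the 7 was used to cluster the cells. The class names are rebuilt and therefore read as "like", and any difference from the study could stem from these names. The GCB-like class, named from markers that include Bcl6, Nuggc, Lipc, Mybl1 and Basp1, ranked first for 6 of the 7 genes. Class levels are described here without a test, because the classes come from the same cells.

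S1pr2 reached 87.4 ± 10 CPM in GCB-like cells (mean ± SD, n = 8 libraries), from 73.1 to 107 CPM. Plasma cell-like cells came next with 4.65 ± 3.13 CPM, and the other 8 classes averaged at most 1.89 CPM. Every GCB-like library lay far above every library of the other classes. Mef2b stood at 251 ± 42.2 CPM in GCB-like and 38.4 ± 14.2 CPM in plasma cell-like cells, Rgs13 at 382 ± 84.3 CPM in GCB-like and 36.3 ± 22.2 CPM in transitional B-like cells (n = 7 libraries with at least 20 cells). Gcsam reached 234 ± 80.1 CPM in GCB-like cells and 14.4 ± 21.9 CPM in memory B-like cells (n = 7), and Neil1 250.4 ± 53 and 42.6 ± 22.7 CPM in the same classes. For these 5 genes the GCB-like libraries did not overlap with those of any other class, and neighbours below GCB-like in the order overlapped.

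Fas and Bach2 differed from the other 5 genes. Fas led in GCB-like cells with 114 ± 12.2 CPM, but memory B-like (21.3 to 104 CPM) and pre-GCB-like cells (11.6 to 129 CPM) overlapped with the GCB-like range of 96 to 134 CPM. Bach2 was broad: 1759 ± 551 CPM in transitional B-like, 1423 ± 454 in GCB-like and 1319 ± 385 in naive B-like cells, which overlapped. It was lowest in plasma cell-like cells at 123 ± 41.8 CPM, a range of 50.7 to 183 CPM that lay below the pre-GCB-like range of 236 to 559.9 CPM.

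**Figure D1:**
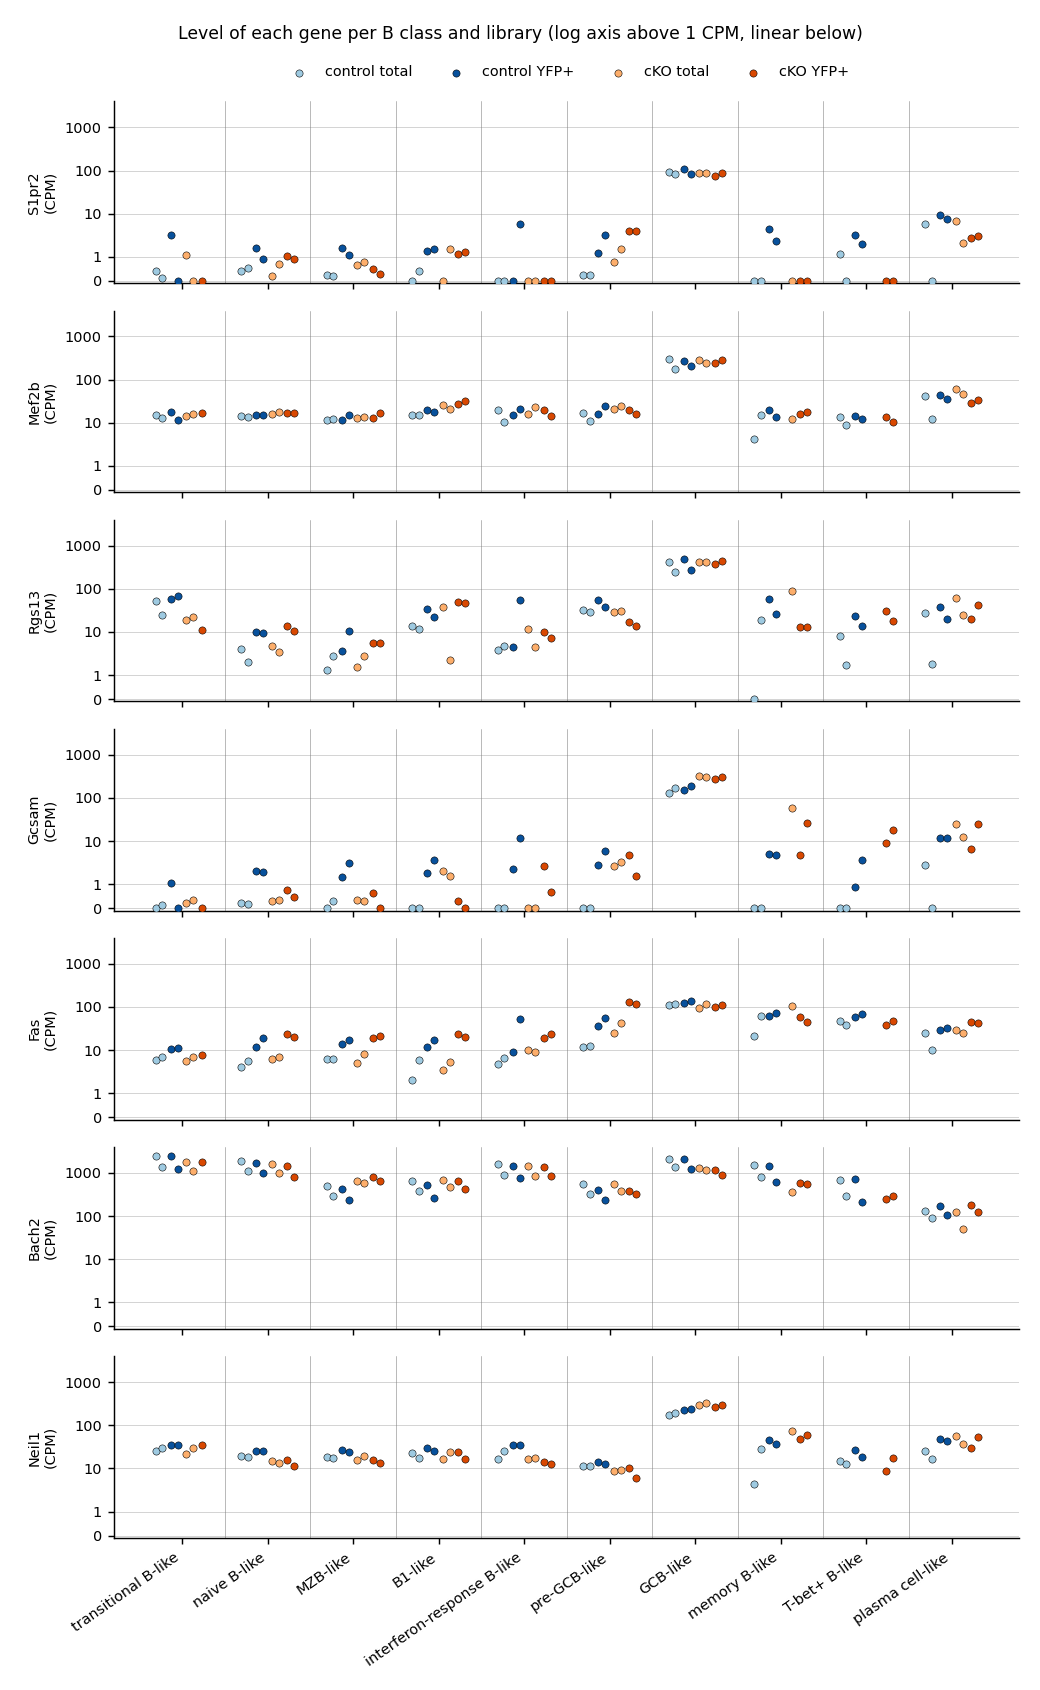
Level of each gene (CPM, log axis above 1 CPM and linear below) in 10 B cell classes, with 1 point per library that held at least 20 cells of the class, coloured by genotype and sort. S1pr2, Mef2b, Rgs13, Gcsam and Neil1 stand apart in GCB-like cells, Fas also reaches 129 CPM in cKO YFP+ pre-GCB-like cells, and Bach2 is high in several classes.

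The 5 genes also met in the same cells. With every cell thinned to 2000 UMIs, 23.8% and 17.1% of GCB-like cells in control YFP+ libraries showed at least 3 of S1pr2, Mef2b, Rgs13, Gcsam and Neil1, and 27.3% and 35% in cKO YFP+ libraries. No pre-GCB-like cell of any library did so, and 1 naive B-like cell in all. In T cells, which should lack the set, at most 2 cells per library did. In cKO YFP+ libraries such cells numbered 100 and 75 among all B-lineage cells, compared with 394 and 579 in control YFP+ libraries.

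Over 76 sums of a class in a library, the levels of S1pr2 and Mef2b followed each other most closely (Pearson r = 0.92 of log2(CPM + 1)), whereas Bach2 stood between r = -0.15 and r = 0.20 with the other 6. These sums share libraries and cells of a lineage, so r is a description. Among 9301 genes the most alike were H1fx, Tox2 and Nuggc for S1pr2 (r = 0.94 for H1fx), Tox2, H1fx and Psip1 for Mef2b (0.91 for Tox2), and Rassf6, Mybl1 and Plxnb2 for Rgs13 (0.84 for Rassf6). Gcsam was nearest to Mybl1, H1fx and Rassf6 (0.92 for Mybl1), and Neil1 to Mybl1, Rassf6 and Rnf10 (0.81 for Mybl1). Fas was nearest to Plpp1, Gatm and Basp1 (0.89 for Plpp1), and Bach2 to Bptf, Ttpal and Top2b (0.92 for Bptf).

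In control mice, sorting for YFP enriched 6 of the 7 genes in B-lineage cells. S1pr2 rose from 3.16 and 2.21 CPM in total to 34.6 and 38.7 CPM in YFP+ libraries, and Gcsam from 3.92 and 4.14 to 48.7 and 86.5 CPM. Neither pair of groups overlapped. By edgeR's quasi-likelihood F test with Benjamini-Hochberg adjustment, which gives every adjusted p below, the log2 fold change was 4.29 (SE 0.42, adjusted p = 0.00631) for Gcsam and 3.96 (SE 0.30, adjusted p = 0.00563) for S1pr2. Rgs13 (2.99, adjusted p = 0.00684), Fas (2.96, 0.00658), Mef2b (2.51, 0.0068) and Neil1 (2.37, 0.00805) rose too, whereas Bach2 was at -0.11 (SE 0.37, adjusted p = 0.874). The 6 of 7 stand beside 8.25% of 15498 genes called in either direction and 6.24% called higher. GCB-like cells made up 18.9 and 29.5% of B-lineage cells in control YFP+ and 1.03 and 0.628% in control total libraries. The 7 plasma cell markers summed to 7794 and 7102 CPM in control YFP+ and 1446 and 1444 CPM in control total B-lineage cells, and the 8 cell cycle markers to 1435 and 1656 CPM in control YFP+ and 343 and 311 CPM in control total cells. Their part in this contrast was not tested.

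The pathway lists are read in this contrast against the 6.24% of all genes called higher. Of 13 tested genes of mutation and base excision repair, 4 rose, namely the nuclear GTPase Nuggc (3.97), Neil3 (2.73), Exo1 (2.21) and the DNA polymerase Polh (2.04). Of 18 transcription factors and their targets 3 rose, namely Mybl1 (3.63), Hmox1 (2.17) and Prdm1, the regulator of plasma cells (1.74). Of 14 genes of positioning Rgs1 rose (2.96) and Rgs18 fell (-1.28), and 0 of 7 genes of the Fas death pathway were called. The other 12 genes of positioning were not called, and 10 of the 14 had estimates below 0. With the batch as a block Rgs1 (2.73, adjusted p = 0.147) and Nuggc (3.92, adjusted p = 0.0591) missed the threshold, as did Rgs18 (-1.06, adjusted p = 0.113) and Prdm1 (1.44, adjusted p = 0.0557) without control total replicate 2, and Prdm1 in the model of all 8 libraries (1.77, adjusted p = 0.062). Rgs1 was 3.57 without control YFP+ replicate 1 and 1.91 without control YFP+ replicate 2, and Prdm1 was 1.17 and 2.18. The medians were 0.42, 0.26, -0.54 and -0.17 for the lists in this order, beside -0.02 over all genes tested.

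The first question about the genotype was how cKO YFP+ cells, in which Cre had acted, compared with control YFP+ cells. Of the 7 genes 5 fell in YFP+ B-lineage cells of cKO mice. S1pr2 stood at 7.81 and 5.53 CPM in cKO beside 34.6 and 38.7 CPM in control libraries, and its log2 fold change was -2.50 (SE 0.25, adjusted p = 0.00502). Rgs13 stood at 44.5 and 30.4 beside 168 and 128 CPM (-2.00, adjusted p = 0.00991). Both genes were lower in both cKO libraries than in either control library.

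Mef2b stood at 36 and 28.1 CPM in cKO and 95.2 and 103 CPM in control YFP+ libraries, a log2 fold change of -1.67 (SE 0.26, adjusted p = 0.0133). Neil1 was measured at 34.9 and 22.4 CPM in cKO and 91.7 and 119 CPM in control libraries, a log2 fold change of -1.93 (SE 0.31, adjusted p = 0.0156). For both the groups did not overlap. Gcsam was at 24.5 and 14.3 CPM in cKO and 48.7 and 86.5 CPM in control libraries, again without overlap but with control libraries that lay far apart. Its log2 fold change was -1.88 (SE 0.39, adjusted p = 0.0333), and with 1 library left out the estimate ranged from -2.32 to -1.25. With the batch as a block Gcsam was no longer called (-1.81, adjusted p = 0.132) and the other 4 genes were (19.2% of all genes were called in that fit). The 5 of 7 stand beside 7.54% of 16118 genes called and 4.43% called lower. Without cKO YFP+ replicate 2, S1pr2 and Gcsam were called (5.39% of all genes were), and Rgs13 (-1.85, adjusted p = 0.0518), Neil1 (-1.74, adjusted p = 0.0553) and Mef2b (-1.60, adjusted p = 0.089) missed the threshold at folds close to those given above.

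Fas and Bach2 were not called in this contrast. Fas stood at 68.9 and 59.3 CPM in cKO YFP+ and 57.2 and 81.1 CPM in control YFP+ libraries, which overlapped, with a log2 fold change of -0.16 (SE 0.30, adjusted p = 0.884). Bach2 was measured at 916 and 609 CPM in cKO and 1113 and 723 CPM in control libraries, which also overlapped, and differed by -0.28 (SE 0.33, adjusted p = 0.766).

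Among the other germinal centre genes, 3 of 14 of mutation and base excision repair fell in cKO YFP+ B-lineage cells, namely Nuggc (-2.95), Polh (-1.58) and Neil3 (-1.49). The list counts of this contrast stand beside 7.54% of all genes called and 4.43% called lower. Of 18 transcription factors and targets Mybl1 (-2.25) and Prdm1, the regulator of plasma cells (-2.51), fell, and Batf, a factor of activated B cells, rose (1.19). With 1 library left out the estimate for Prdm1 ranged from -3.30 to -1.93. Batf missed the threshold without either cKO YFP+ library (1.20 and 1.17), and Polh without cKO YFP+ replicate 2 (-1.36). No gene of positioning (0 of 14) or of the Fas pathway (0 of 7) was called. The list medians were -0.33, -0.11, 0.09 and -0.01 in this order, beside 0.01 over all genes. Bcl6, the central repressor of GCB cells, stood at 104 and 99.5 CPM in cKO and 74 and 71.4 CPM in control YFP+ libraries and was not called (0.46, SE 0.24, adjusted p = 0.372).

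Cell classes moved with these differences. GCB-like cells made up 3.91 and 2.07% of B-lineage cells in cKO YFP+ libraries (370 and 215 cells) and 18.9 and 29.5% in control YFP+ libraries (1640 and 3400 cells). The 7 plasma cell markers, all detected in each group, summed to 1528 and 1356 CPM in cKO YFP+ and 7794 and 7102 CPM in control YFP+ B-lineage cells, and the 8 cell cycle markers to 909 and 698 CPM in cKO and 1435 and 1656 CPM in control. Other classes moved too. Naive B-like cells numbered 5592 and 7320 of 9456 and 10363 B-lineage cells in cKO YFP+ libraries. In control YFP+ libraries they numbered 2039 and 2701 of 8696 and 11515. Memory B-like cells numbered 67 and 55 in cKO YFP+ and 758 and 1021 in control YFP+ libraries, and T-bet+ B-like cells 33 and 21 beside 864 and 893. The part of these classes and of the plasma cell and cell cycle genes in the result was not tested.

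Shares of cells with a UMI were also lower in cKO YFP+ cells. After thinning to 2000 UMIs, S1pr2 was seen in 0.768% and 0.577% of cKO YFP+ and 4.47% and 5.2% of control YFP+ B-lineage cells, and Gcsam in 1.92% and 1.11% of cKO and 4.85% and 8.96% of control cells. T cells of the total libraries showed S1pr2 in 0.327% to 0.814% of cells and Gcsam in 0% to 0.222%. The cKO YFP+ share of S1pr2 lay within this T cell range and that of Gcsam above it. Whether some T cells express S1pr2 themselves was not tested, so their share is no measure of background. In cKO YFP+ libraries 74.5% and 63.4% of the S1pr2 UMIs lay in GCB-like cells. Median depths were 5976 and 6629 UMIs in cKO YFP+ and 7027 and 6339 in control YFP+ B-lineage cells, and without thinning the S1pr2 shares were 3.75% and 3.16% in cKO against 15.6% and 19.0% in control. With 2 libraries a group an exact two-sided permutation test cannot go below p = 0.33.

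**Figure D2:**
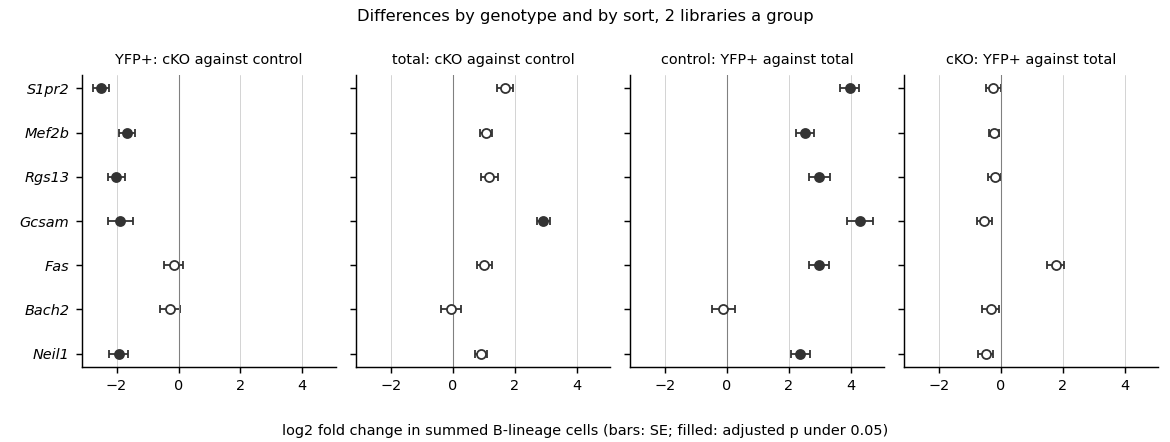
Log2 fold change of each gene in summed B-lineage cells for 4 contrasts of 2 against 2 libraries, with the SE as bars and filled points for an adjusted p under 0.05 (edgeR). S1pr2, Mef2b, Rgs13, Gcsam and Neil1 are lower in cKO YFP+ than in control YFP+ cells and higher, by the estimate, in cKO total than in control total cells, where only Gcsam is called.

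The total libraries pointed the other way. Gcsam rose from 3.92 and 4.14 CPM in control total to 28 and 31 CPM in cKO total B-lineage cells, with a log2 fold change of 2.93 (SE 0.20, adjusted p = 0.0266), and was 1 of 2 genes called among 14710 (0.0136%). S1pr2 stood at 3.16 and 2.21 CPM in control and 7.63 and 9.0 CPM in cKO total libraries (1.70, adjusted p = 0.0981). Rgs13 was at 27.3 and 15.3 CPM in control and 44 and 47.3 CPM in cKO total libraries (1.18, adjusted p = 0.231). In all 3 genes both cKO total libraries lay above both control total libraries. The 8 cell cycle markers summed to 532 and 525 CPM in cKO total and 343 and 311 CPM in control total libraries, without overlap, and the 7 plasma cell markers to 1272 and 2781 CPM in cKO total and 1446 and 1444 CPM in control total libraries, with cKO total replicate 2 apart from the others. Their part in the result was not tested.

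Mef2b (1.08, adjusted p = 0.141), Fas (1.02, 0.25) and Neil1 (0.92, 0.188) did not pass the threshold, and neither did Bach2 (-0.06, 1.00). With the batch as a block 5 of the 7 were called, where 11.2% of all genes were: Gcsam (adjusted p = 6.3e-04), Neil1 (0.00813), S1pr2 (0.0146), Mef2b (0.0251) and Fas (0.0266). DESeq2 called 6 (2.32% of all genes), and a model of all 8 libraries called 0 (0.0854%, with Gcsam at an adjusted p of 0.0577). Leaving out 1 library gave 6 calls without cKO total replicate 1 (4.59% of all genes), 4 without control total replicate 1 (2.02%), 3 without control total replicate 2 (2.36%) and 2 without cKO total replicate 2 (1.06%). No gene of the 4 pathway lists was called by edgeR. GCB-like cells made up 2.62 and 3.42% of B-lineage cells in cKO total and 1.03 and 0.628% in control total libraries, or 184 and 237 beside 62 and 48 cells.

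In cKO mice the YFP sort did not separate S1pr2, Mef2b, Rgs13, Gcsam and Neil1 as it did in controls. None of the 7 was called between cKO YFP+ and cKO total B-lineage cells, where 2 of 15594 genes were (0.0128%), and 1 of the 7 had an unadjusted p under 0.05. Fas had the largest estimate, with 16.2 and 23.5 CPM in total and 68.9 and 59.3 CPM in YFP+ libraries, which did not overlap (1.76, adjusted p = 0.083). It was called by DESeq2 (1.75, adjusted p = 4.3e-08, with 5.88% of all genes), without a filter on low counts (1.77, adjusted p = 0.0121, 2.03%) and without immunoglobulin genes (1.75, adjusted p = 0.0438, 1.45%). It was also called, as the 1 gene of the 7, with any 1 of the 4 libraries left out, at 1.45 without cKO total replicate 1 (3.9% of all genes), 2.18 without cKO total replicate 2 (9.05%), 1.74 without cKO YFP+ replicate 1 (6.95%) and 1.79 without cKO YFP+ replicate 2 (3.29%). The other estimates lay between -0.54 for Gcsam and -0.21 for Rgs13. With the batch as a block Fas was not called (1.81, adjusted p = 0.0575) and Bach2 was, lower in YFP+ cells (-0.34, adjusted p = 0.00362), in a fit that called 44.2% of all genes. The 4 contrasts share libraries, so their values are given side by side and not compared as independent results.

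The difference between the sorts in the effect of the genotype was tested in 1 model of all 8 libraries. The effect was lower in YFP+ than in total cells for 5 of the 7 genes, beside 1.63% of 16403 genes called and 1.33% called lower. The log2 interaction was -4.22 (SE 0.35, adjusted p = 0.0151) for S1pr2, -4.83 (SE 0.54, adjusted p = 0.0241) for Gcsam, -3.21 for Rgs13 (adjusted p = 0.0261), -2.87 for Neil1 (0.0315) and -2.77 for Mef2b (0.0237). Fas (-1.21, 0.273) and Bach2 (-0.24, 0.963) were not called. Mybl1 (-3.93) and 3 of 13 genes of mutation and base excision repair, Nuggc (-4.51), Neil3 (-2.38) and Polh (-2.16), were called in the same direction. Of the 7 genes 1 was called without cKO YFP+ replicate 1 (0.0665% of all genes), and 0 without cKO YFP+ replicate 2, cKO total replicate 2, control YFP+ replicate 2, control total replicate 1 or control total replicate 2, where 0% of all genes were called too. With 1 library left out the interaction ranged from -4.41 to -4.01 for S1pr2, -5.27 to -4.21 for Gcsam, -3.59 to -2.92 for Rgs13, -3.15 to -2.54 for Neil1 and -2.93 to -2.58 for Mef2b.

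To set class shares apart from levels, each YFP+ difference was recomputed within a batch with only the class shares or only the class levels of cKO cells. A class share is here its part of the B-lineage UMIs, so it mixes the number of cells with the UMIs per cell. Neither value counts what comes from a class that changed in share and level together. The values from shares and from levels therefore need not add up to the measured ratio. For S1pr2 the measured log2 ratio was -2.15 and -2.81 in batch 1 and 2, the shares alone gave -1.78 and -2.84, and the levels alone gave -0.62 and -0.01. For Gcsam the measured values were -0.99 and -2.59, with -1.74 and -2.90 from shares and 0.80 and 0.73 from levels, which had the opposite sign. For Mef2b, Rgs13 and Neil1 the shares alone gave between -1.24 (Neil1, batch 1) and -2.02 (Neil1, batch 2). The levels alone gave -0.16 and 0.42 for Mef2b and -0.44 and 0.68 for Rgs13, of opposite sign in the 2 batches, and 0.05 and 0.31 for Neil1. The division depends on where classes are drawn: with classes defined in the control libraries, a setting given with the pre-GCB-like cells, Gcsam (-1.41, adjusted p = 0.00481) and S1pr2 (-2.18, adjusted p = 2.5e-04) were lower inside cKO YFP+ GCB-like cells.

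Fas had shares alone at -0.91 and -1.08 and levels alone at 0.03 and -0.21, and measured ratios of 0.27 and -0.45. The values from shares and from levels did not add up to the measured ratio in either batch. Levels alone weighted each class by its share in control libraries, where pre-GCB-like cells were few. They therefore do not show that Fas was unchanged within each class, and its level in pre-GCB-like cells is given below. Where the B-lineage UMIs of a gene lay also differed. Control YFP+ libraries had 92.7% and 95.9% of their Gcsam UMIs in GCB-like cells, and cKO YFP+ libraries had 90.1% and 88.6%. Of S1pr2 UMIs the GCB-like cells held 91% and 94.6% in control and 74.5% and 63.4% in cKO. For Fas the share was 62.8% and 72.4% in control YFP+ libraries but 11.5% and 7.58% in those of cKO YFP+ cells, so most Fas UMIs of cKO YFP+ cells came from other classes.

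In total cells, shares alone gave 1.49 and 1.94 and levels alone 1.47 and 1.07 for Gcsam, beside measured ratios of 2.84 and 2.90. The control total libraries held 62 and 48 GCB-like cells, and no test was made of this division. S1pr2 had 1.36 and 1.83 from shares and 0.02 and 0.33 from levels.

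**Figure D3:**
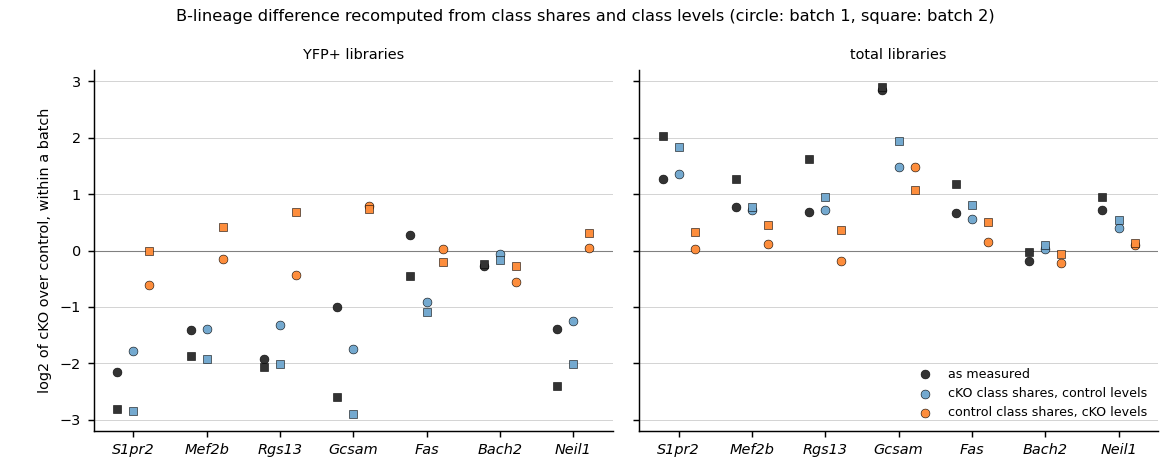
Log2 ratio of cKO to control B-lineage levels within each batch (circle batch 1, square batch 2), as measured, with only the class shares of cKO cells (shares of B-lineage UMIs), and with only their class levels. In YFP+ libraries the 5 genes S1pr2, Mef2b, Rgs13, Gcsam and Neil1 lie below 0 as measured and by shares, while Gcsam lies above 0 by levels, at 0.80 and 0.73.

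GCB-like cells of both genotypes carried the identity genes. S1pr2 stood at 107 and 83.4 CPM in control YFP+, 73.1 and 85.5 CPM in cKO YFP+, 94.7 and 81.1 CPM in control total and 86.3 and 88.7 CPM in cKO total libraries. Mef2b was at 264 and 206 CPM in control YFP+, 240.2 and 284 CPM in cKO YFP+, 299 and 181 CPM in control total and 293 and 240.5 CPM in cKO total libraries. For both genes cKO and control libraries overlapped within each sort, and in YFP+ cells the log2 fold changes were -0.22 (SE 0.21, adjusted p = 0.969) for S1pr2 and 0.21 (SE 0.23, adjusted p = 0.978) for Mef2b.

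Rgs13 (0.14, adjusted p = 0.996), Neil1 (0.32, 0.87) and Fas (-0.26, 0.94) were not called either. Neil1 was nonetheless higher in both cKO YFP+ libraries (267 and 295 CPM) than in both control YFP+ libraries (229 and 232 CPM), and in both cKO total (297 and 319) than in both control total libraries (173 and 190.4). Fas was lower in both cKO YFP+ libraries, at 99.9 and 109 CPM beside 122 and 134 CPM, and in total libraries it overlapped (96 and 119 CPM in cKO and 114 and 118 CPM in control). Bach2 was lower in the cKO YFP+ libraries too, at 1193 and 876 CPM beside 2096 and 1226 CPM, without overlap (-0.63, 0.588).

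Gcsam, like Neil1, was higher in the cKO libraries of both sorts. It stood at 153 and 189 CPM in control YFP+, 277 and 309 CPM in cKO YFP+, 133 and 169.7 CPM in control total and 327 and 311 CPM in cKO total libraries, so that all 4 cKO libraries lay above all 4 control libraries. In total GCB-like cells it was called (log2 fold change 1.11, SE 0.26, adjusted p = 0.0372), where 1.73% of 9536 genes were. In YFP+ GCB-like cells the estimate was 0.80 (SE 0.25, adjusted p = 0.249), and with the batch as a block it was called (0.82, adjusted p = 8.3e-05), as was Bach2 (-0.61, 0.0128), where 8.86% of all genes were. Without the block 0 of 7 were called in YFP+ GCB-like cells (1 at an unadjusted p under 0.05, 0 by DESeq2), beside 1.28% of 12180 genes, and leaving out control YFP+ replicate 2 gave 2 calls, where 8.75% of all genes were. The sign of Gcsam turned when classes were defined in the control libraries, a setting given with the pre-GCB-like cells.

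The higher Gcsam level was seen in each of the 3 clusters that form the class. In the cluster without cell cycle genes among its leading genes it was 289 and 302 CPM in cKO YFP+ and 119.8 and 165 CPM in control YFP+ libraries. In the cluster led by histone genes of S phase it was 262 and 289.7 CPM in cKO and 160.1 and 192 CPM in control, and in the cluster led by mitotic genes 293 and 385 CPM in cKO and 210.4 and 227 CPM in control. The groups did not overlap in any of the 3 clusters. At 2000 UMIs per cell, Gcsam was seen in 42.8% and 44.9% of cKO YFP+ and 23.4% and 27.4% of control YFP+ GCB-like cells, and in 49.5% and 40.4% of cKO total and 11.7% and 21.3% of control total cells. Exact 95% binomial intervals of the cKO YFP+ libraries began at 37.7% and 38.1%, above the upper bounds of 25.5% and 29.0% in control YFP+ libraries. These intervals cover counting error only.

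Eif3e in GCB-like cells was 266 and 303 CPM in cKO YFP+ and 265 and 298 CPM in control YFP+ libraries (log2 fold change 0.05, SE 0.24, adjusted p = 0.999). Median depth was 15955 and 17831 UMIs in cKO YFP+ and 13079.5 and 12116 UMIs in control YFP+ GCB-like cells, and the 6 T cell markers, of which 3 were detected in cKO YFP+ replicate 2 and all in the other libraries, summed to 33 and 35.5 CPM in cKO and 61.3 and 29.6 CPM in control YFP+ cells. In total GCB-like cells the 7 plasma cell markers summed to 1855 and 2006 CPM in cKO and 1214 and 1455 CPM in control libraries. The 6 T cell markers summed there to 85 and 84.5 CPM in cKO and 132 and 94.2 CPM in control. Neither list overlapped between the genotypes. The part of depth and of these markers in the Gcsam differences was not tested. No gene of the 4 pathway lists was called in YFP+ GCB-like cells.

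**Figure D4:**
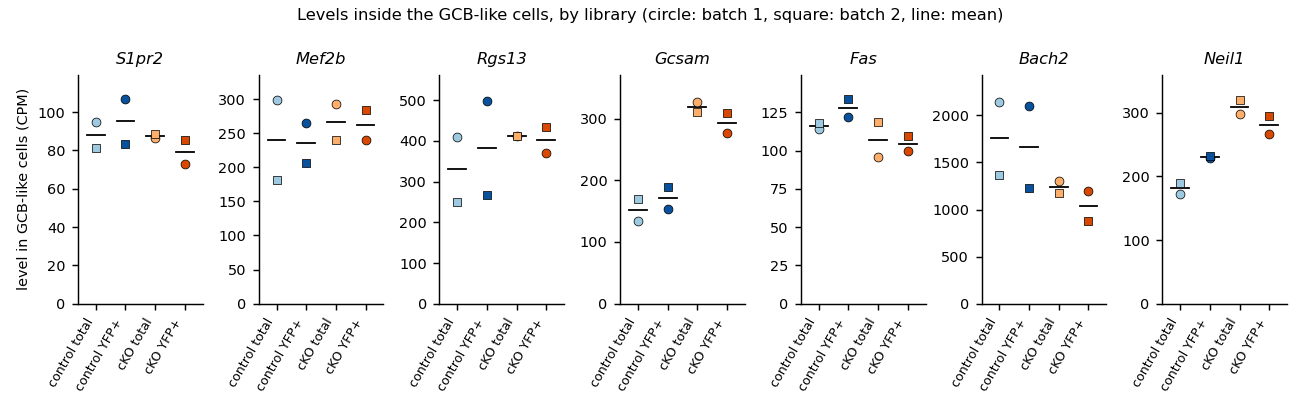
Level of each gene inside GCB-like cells (CPM, axes from 0), with 1 point per library (circle batch 1, square batch 2) and a line at the mean of 2. Gcsam and Neil1 lie higher in all 4 cKO libraries than in any control library, and S1pr2 and Mef2b overlap between the genotypes within each sort.

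Pre-GCB-like cells were named from Myc, Batf, Irf4, Ebi3, Nme1, Il4i1 and Cd83, genes of activated B cells. They numbered 1633 and 1662 cells in cKO YFP+ and 303 and 310 in control YFP+ libraries. Here Fas rose and Rgs13 fell in cKO YFP+ cells. Fas stood at 129 and 115 CPM in cKO YFP+ and 35.6 and 55.5 CPM in control YFP+ libraries, with a log2 fold change of 1.51 (SE 0.24, adjusted p = 0.00535). Both cKO libraries lay above both control libraries, near the level of GCB-like cells. By flow cytometry of older mice, the paper reports that few cKO YFP+ B cells raised Fas protein. It proposes that they were held at a Fas-negative pre-GCB stage. The values here are RNA of younger mice in a rebuilt class, and RNA and protein were not compared. The 8 cell cycle markers summed to 1473 and 1309 CPM in cKO YFP+ and 2268 and 1867 CPM in control YFP+ pre-GCB-like cells, and the 7 plasma cell markers to 527 and 417 CPM in cKO and 918 and 729 CPM in control, without overlap for either list. Their part in the Fas and Rgs13 differences was not tested.

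Rgs13 was measured at 16.9 and 13.9 CPM in cKO YFP+ and 53.7 and 37.5 CPM in control YFP+ pre-GCB-like cells, which did not overlap (log2 fold change -1.48, SE 0.21, adjusted p = 0.00298). The 2 of 7 stand beside 12% of 12785 genes called. S1pr2 was at 3.9 and 3.99 CPM in cKO and 1.24 and 3.18 CPM in control libraries (log2 fold change 0.98, SE 0.46, adjusted p = 0.187), far below the 73.1 and 85.5 CPM of GCB-like cells. The estimate of S1pr2 was 0.36 without control YFP+ replicate 1 and 1.76 without control YFP+ replicate 2, where it was called beside Fas and Rgs13 (adjusted p = 0.0117, with 18.4% of all genes). Gcsam (-0.36), Mef2b (-0.10), Bach2 (0.24) and Neil1 (-0.66) were not called. With the batch as a block Neil1 was called too (-0.66, adjusted p = 0.0338), where 31.1% of all genes were.

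Fas was higher in both clusters of the class. In the cluster of lower depth it was 111 and 108 CPM in cKO YFP+ and 28.1 and 37.4 CPM in control YFP+ libraries, and in the cluster of higher depth 136 and 117 CPM in cKO and 40.2 and 69.9 CPM in control. The higher-depth cluster held 47.8% of the class in cKO YFP+ and 31.3% in control YFP+ libraries. Median depth of the class was 12770.0 and 16785 UMIs in cKO YFP+ and 9479 and 6116 UMIs in control YFP+ libraries. At 2000 UMIs per cell, Fas was seen in 16.5% and 18.8% of cKO YFP+ and 4.32% and 7.54% of control YFP+ cells, beside 4.96% to 6.18% of T cells in the total libraries, which also express Fas.

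Of all genes tested 5.48% were called higher and 6.54% lower in these cells, the background of the following counts. Bcl6 rose from 32.9 and 22.3 CPM in control YFP+ to 57.2 and 50.6 CPM in cKO YFP+ libraries (log2 fold change 1.04, SE 0.21, adjusted p = 0.0126). It was higher in both cKO libraries, and is among the markers by which the GCB-like class was named. Neil3 fell (-1.70), so of 13 genes of mutation and base excision repair 0 rose and 1 fell. Of 6 tested genes of the Fas pathway 1 rose, Cflar, which restrains death receptor signalling (0.96).

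Of 14 genes of positioning 5 fell and 0 rose: Ccr7 (-1.96) and S1pr1 (-1.42), which draw cells to the T zone and to the blood, Rgs14 (-1.14), S1pr4 (-0.92) and the follicle receptor Cxcr5 (-0.89). Of 18 transcription factors and targets 3 rose and 4 fell, among them Batf, itself a marker by which the pre-GCB-like class was named (0.90), Pou2f2 (-0.84), Tcf4 (-0.80) and Ebf1 (-0.75). The list medians were -0.07 for repair, -0.15 for the Fas pathway, -0.43 for positioning and -0.42 for transcription factors, beside -0.0042 over all genes. Of 16 alternatives, S1pr4 kept its call in 7, Tcf4 and Ebf1 in 10, Rgs14, Cxcr5 and Pou2f2 in 12, S1pr1, Batf and Cflar in 13 and Ccr7 in 14. Ccr7 missed the threshold with the batch as a block (-2.00, adjusted p = 0.30). At a finer clustering the estimate for Batf was 0.06, adjusted p = 0.908. Without cKO YFP+ replicate 2 Rgs14 (-0.96), Cxcr5 (-0.59), Pou2f2 (-0.73), Tcf4 (-0.72) and Ebf1 (-0.60) missed the threshold, without cKO YFP+ replicate 1 S1pr4 (-0.75), Tcf4 (-0.87) and Ebf1 (-0.90), without control YFP+ replicate 1 S1pr4 (-0.62) and Tcf4 (-0.64), and without control YFP+ replicate 2 Ebf1 (-0.70).

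Eif3e fell in this class, from 276 and 285 to 158 and 159 CPM (log2 fold change -0.74, SE 0.18, adjusted p = 0.0308). The call was kept in 10 of 16 alternatives, and without cKO YFP+ replicate 1 (-0.68, adjusted p = 0.159), cKO YFP+ replicate 2 (-0.78, adjusted p = 0.145) or control YFP+ replicate 2 (-0.64, adjusted p = 0.067) it was lost.

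These calls depended on how the class was drawn. At a finer clustering (Leiden resolution 1.5 in place of 1), where the class of the cKO YFP+ libraries lost 597 and 680 of its cells, 528 and 635 of them to a class named memory B-like, and gained 1666 and 2267 others, Fas (0.51, adjusted p = 0.266) and Rgs13 (-0.80, adjusted p = 0.0507) were no longer called, Gcsam (-2.04, adjusted p = 0.0248) and Bach2 (1.34, adjusted p = 0.0171) were, and S1pr1, S1pr4, Cxcr5, Pou2f2, Ebf1 and Eif3e changed sign (8.6% of all genes were called). Of the cells lost, 513 and 610 had been in the higher-depth cluster, and the control YFP+ libraries lost 8 and 10 and gained 28 and 24 cells. The names of these clusters rest on 1 leading gene each. The cluster renamed memory B-like had Cd80 among its 10 leading genes but a mean marker score (the z-score over clusters) of 1.32 for the pre-GCB markers and 0.14 for the memory B markers. A cluster of 4319 cells that joined the pre-GCB-like class had Il4i1 among its leading genes but scored 0.76 for naive B and 0.11 for pre-GCB markers, so that the class at this resolution goes against its own marker scores in these cells. Without centring the cells within a batch, Fas (1.02, adjusted p = 0.0994) missed the threshold and Rgs13 passed it (-1.79, adjusted p = 0.00129), where 4.19% of all genes did. There too the largest cluster of the class, with 8232 cells, had Il4i1 among its leading genes but scored 0.59 for naive B and 0.22 for pre-GCB markers. In that class S1pr1 (-0.43), Rgs14 (-0.71), S1pr4 (-0.14), Cxcr5 (-0.34), Batf (0.46), Pou2f2 (-0.26), Tcf4 (-0.86), Ebf1 (-0.10), Cflar (0.77) and Eif3e (-0.37) missed the threshold. Leaving out any 1 of the 4 libraries kept the calls of Fas, Rgs13 and Bcl6.

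The line between pre-GCB-like and GCB-like cells mattered as well. When each cKO cell took the class of its 20 nearest control cells, 698 and 642 pre-GCB-like cells of the cKO YFP+ libraries were counted as GCB-like, beside 369 and 215 that were GCB-like already. In those reassigned cells S1pr2 was 5.07 and 4.35 CPM, Mef2b 19.5 and 17 CPM and Gcsam 6.72 and 2.03 CPM, all far below GCB-like cells of either genotype. Fas was 145 and 118 CPM, within or above the GCB-like range of all libraries, and Bach2 was 280.4 and 252 CPM.

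Bcl6 stood at 41.2 and 39.6 CPM in the reassigned cells, compared with 136 and 125 CPM in cKO YFP+ GCB-like cells. Eif3e was 124 and 118 CPM in them, 239 and 218 CPM in the other pre-GCB-like cells and 266 and 303 CPM in GCB-like cells of the same libraries. With classes set in this way 6 of 7 genes were called lower in YFP+ GCB-like cells, where 28% of 13533 genes were called, with log2 fold changes of -1.41 for Gcsam to -2.18 for S1pr2, and Fas was at 0.05. In YFP+ pre-GCB-like cells set in this way 0 of the 5 genes that could be tested (S1pr2 and Gcsam were filtered out) were called, where 0.809% of 10388 genes were. Fas (1.68, adjusted p = 0.0627) and Rgs13 (-1.26, adjusted p = 0.0897) kept estimates of about the size given above. Bcl6 was not called there (1.06, adjusted p = 0.237), and neither was any of the 5 genes of positioning, at -1.64 for Ccr7, -0.60 for S1pr1, -0.60 for Rgs14, -0.56 for Cxcr5 and 0.84 for S1pr4, which changed sign. Batf (0.84), Pou2f2 (-0.32), Tcf4 (-0.41), Ebf1 (-0.64), Cflar (0.71) and Eif3e (-0.13) missed the threshold as well.

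**Figure D5:**
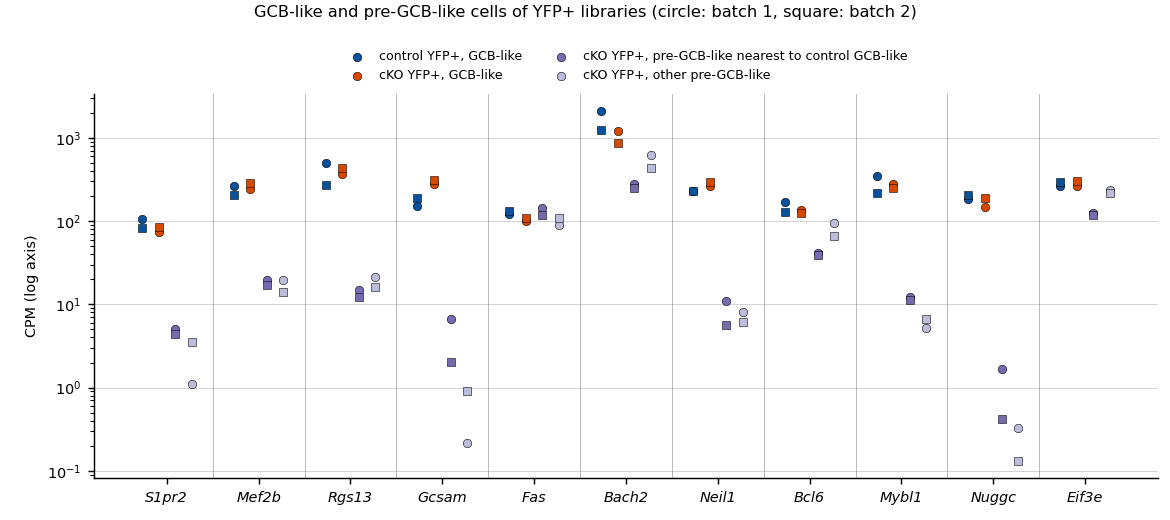
Levels (CPM, log axis) of the 7 genes and of Bcl6, Mybl1, Nuggc and Eif3e in YFP+ libraries (circle batch 1, square batch 2), for GCB-like cells of both genotypes and for cKO pre-GCB-like cells divided by whether their nearest control cells are GCB-like. The pre-GCB-like cells nearest to control GCB-like cells reach GCB-like levels of Fas, lie far below them for S1pr2, Mef2b, Rgs13, Gcsam, Neil1 and Nuggc, and have the lowest Eif3e, at 124 and 118 CPM.

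In naive B-like cells the genes other than Bach2 were low, and 0 of 7 were called between cKO and control YFP+ cells, beside 0.55% of 12718 genes (2 of 7 at an unadjusted p under 0.05, 0 by DESeq2). Gcsam stood at 0.754 and 0.47 CPM in cKO YFP+ and 2.05 and 1.91 CPM in control YFP+ libraries, and Neil1 at 16 and 11.1 CPM in cKO and 25.4 and 24.7 CPM in control. Neither gene overlapped between the groups, and with the batch as a block both were called lower (Gcsam -1.45, adjusted p = 0.034, and Neil1 -0.76, adjusted p = 0.00909), where 16.9% of all genes were. Different clusters held this class: 1 cluster held 92.1% of it in control YFP+ libraries, and 3 others held 50.9%, 26.4% and 19.6% in cKO YFP+ libraries. In total naive B-like cells 0 of 6 tested genes were called, beside 0.214% of 12601 genes (0 at an unadjusted p under 0.05, 0 by DESeq2). The clusters differed in this sort too. The cluster that held 92.1% of the class in control YFP+ libraries held 97.3% of it in control total and 6.57% in cKO total libraries.

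Over the other B cell classes of both sorts 70 pairs of a gene and a class were tested, and 1 was called, the rise of Gcsam in total GCB-like cells given above (20 pairs had an unadjusted p under 0.05). The pair stands beside 0.608% of all gene tests in these classes. With the batch as a block 17 pairs were called, beside 5.39% of tests. Among them, Fas rose in total pre-GCB-like cells (1.48, adjusted p = 8.4e-06), where 5.47% of genes were called. Its levels there were 11.6 and 12.7 CPM in control total and 25.1 and 43 CPM in cKO total libraries, without overlap, and the fit without the block gave an adjusted p of 0.1005. Bach2 rose in YFP+ MZB-like (marginal zone) cells under the block (1.23, adjusted p = 1.1e-06, 13.3% of genes called), with 805 and 640.2 CPM in cKO YFP+ and 422 and 230.0 CPM in control YFP+ libraries. A cluster of 2420 cells in this class had mean marker scores of 0.70 for MZB and 0.42 for naive B markers. The first of its leading genes was Xist. The part of this cluster and of the sex of the pooled mice in the Bach2 difference was not tested.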

How the data were processed

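Single cells of mouse spleen were measured by droplet RNA sequencing of 3′ ends in 8 libraries, and the deposited matrices hold raw UMI counts per gene and cell that the authors made from the reads. The submitters' processing notes name the builds GRCm38 and mm10, and the aligner, annotation and strand setting were not given in the sources used here. Kept were cells in which mitochondrial genes held no more than 10% of UMIs, with over 200 UMIs and over 100 genes. Doublets were called with scrublet (0.997% to 2.89% of cells) and kept, being removed only in an alternative, and 4 libraries whose own threshold failed took the median threshold of the others.

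B-lineage cells were clustered (scanpy 1.11.5, Leiden resolution 1, cells centred within batch) without the 7 genes and 4 pathway lists, and clusters were named from marker lists. Counts were summed per class and library. They were compared between groups of 2 libraries with edgeR 4.0.16 (R 4.3.3; TMM, filterByExpr, robust quasi-likelihood F test, Benjamini-Hochberg over all genes tested, adjusted p under 0.05), and fold changes were shrunk with a prior count of 2. Each SE is the absolute fold change of the fit before this shrinkage, divided by the square root of its F statistic. It therefore belongs to that fold change and not to the shrunken value printed beside it. Libraries held 71894780 to 105224903 UMIs, and a count of 0 allows up to 3 counts. Shares of cells were compared after thinning each cell to 2000 UMIs, leaving out shallower cells.

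The labels number the batches, and libraries with the same number deviated together (r = 0.407 to 0.591 over 16403 genes for the 6 pairs of groups), so that the numbers pair the libraries. Named were the 7 genes, Eif3e, and at most 5 called genes of each pathway list by adjusted p. The 7 genes and the lists were chosen with earlier results of these data known. Alternatives were DESeq2 1.42.0, its size factors, no filter on low counts, the batch as a block, all 8 libraries in 1 model, doublets removed, a stricter cell filter, immunoglobulin genes left out, other clusterings, classes defined in control libraries, and each library left out in turn. The procedure was also run on simulated counts with the same spread for every gene and no batch effect. These libraries do differ by batch, so that run does not show how the procedure behaves on them. Protein sequences were not analysed here, and 2 genes of the pathway lists are not reported here.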

Additional observations from a re-analysis of the deposited data

Results flagged for a closer look

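By a test of the interaction in 1 model of all 8 libraries, cKO and control B-lineage cells differed otherwise in the YFP+ sort than in the total sort for 5 of the 7 genes and 4 genes of the pathway lists. In that model 1.63% of 16403 genes were called. The difference of the 2 log2 fold changes (YFP+ minus total) was -4.83 for Gcsam, -4.22 for S1pr2, -3.21 for Rgs13, -2.87 for Neil1 and -2.77 for Mef2b. Among the other germinal centre genes it was -4.51 for Nuggc, -3.93 for Mybl1, -2.38 for Neil3 and -2.16 for Polh. Of the 7 genes, 1 was called without cKO YFP+ replicate 1 (11 of all genes were called) and 0 without cKO YFP+ replicate 2, cKO total replicate 2, control YFP+ replicate 2, control total replicate 1 or control total replicate 2 (0 of all genes), and the 4 genes of the pathway lists were not called in any of these 6 fits. In all 9 genes both cKO libraries lay below both control libraries in the YFP+ sort and above them in the total sort.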

How the results depend on the processing

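Over 62 results for the 7 genes and 865 alternatives, 752 kept direction and side of the threshold, 39 lost a call, 42 gained one and 32 changed sign. None of these 32 was called in the main fit. Some were called with the other sign in the alternative. With control-defined classes Mef2b, Rgs13, Gcsam and Neil1 did so in YFP+ GCB-like cells, where 28% of 13533 genes were called. The causes were not tested. The number of the 7 genes called moved as follows. In total B-lineage cells (1 called) it was 6 with DESeq2, 2 without a filter, 0 in the model of all 8 libraries and 2 to 6 with a library left out. Between cKO YFP+ and cKO total cells (0 called) it was 1 with DESeq2, without a filter, without immunoglobulin genes and with any library left out. With a library left out it was 2 to 5 in YFP+ B-lineage cells, 0 to 5 for the interaction and 0 to 2 in YFP+ GCB-like cells. In YFP+ pre-GCB-like cells it was 1 without centring and 0 with control-defined classes, which gave 6 in YFP+ GCB-like cells. Of pairs in other classes, 2 of 69 were called at resolution 0.5 and 8 of 72 at 1.5. The share of all genes called is not given for these settings, nor for total B-lineage cells without a filter. Those counts therefore describe the fits and are not read as a result about the 7 genes.

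With the replicate block (the batch), 5 genes were called in total B-lineage cells, 1 between cKO sorts, 2 in YFP+ naive B-like cells, 2 in YFP+ GCB-like cells and 17 pairs in other classes. The pairing changed no other call of the 7 genes beyond those given with the results.

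Signs turned in the following log2 fold changes of YFP+ cells. At resolution 1.5 they were, in naive B-like cells, Rgs13 (-1.09) and Bach2 (0.0336, and 0.0128 without centring), and in pre-GCB-like cells S1pr2 (-0.26), Mef2b (0.14), S1pr1 (0.16), Pou2f2 (0.19), Cxcr5 (0.0602), S1pr4 (0.39), Ebf1 (0.29) and Eif3e (0.17). There Gcsam was 0.0093 with doublets removed. Control-defined classes gave 0.50 for Mef2b and 0.84 for S1pr4 in pre-GCB-like cells, and in GCB-like cells -1.73 for Mef2b, -1.99 for Rgs13, -1.41 for Gcsam, 0.0494 for Fas and -1.82 for Neil1.

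With a library left out, values ranged in YFP+ B-lineage cells from -0.49 to 0.25 for Fas and -0.21 to 0.30 for Eif3e. For Bach2 they ranged from -0.36 to 0.31 in total B-lineage cells, -0.37 to 0.25 between control sorts, -0.58 to 0.0222 for the interaction, -0.49 to 0.31 in YFP+ naive B-like, -0.0338 to 0.64 in YFP+ pre-GCB-like and -0.43 to 0.27 in total naive B-like cells. S1pr2 ranged from -0.41 to 0.23 in YFP+ and -0.12 to 0.62 in total naive B-like cells, Mef2b from -0.44 to 0.31 and Gcsam from -1.23 to 0.35 in YFP+ pre-GCB-like, and Rgs13 from -0.18 to 0.55 in YFP+ GCB-like cells. A group left with 1 library is assumed to vary like the other.

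Counts over all genes depended on the fit: 1216 in YFP+ B-lineage cells (903 to 3091), 2 in total (2 to 1643), 1278 between control sorts (1134 to 7268), 2 between cKO sorts (2 to 6894), 268 for the interaction (0 to 1969), 70 in YFP+ naive B-like (25 to 2147), 1537 in YFP+ pre-GCB-like (84 to 3977), 156 in YFP+ GCB-like (148 to 3790) and 27 in total naive B-like cells (8 to 2052). Control total libraries held 62 and 48 GCB-like cells, which limits their values.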
